A study of Homo sapiens with 12 samples.

Results

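The 36 genes described here encode aminoacyl-tRNA synthetases, the enzymes that join each amino acid to its transfer RNA. They were taken by symbol from a gene table of 58721 entries, and all 36 were found, 20 for cytosolic enzymes and 16 for mitochondrial enzymes, whose symbols end in 2. RNA-seq was performed on 12 libraries of Pa-Tu-8902 and MIA PaCa-2, human pancreatic ductal adenocarcinoma lines that carry a doxycycline (dox)-inducible short hairpin RNA against GOT1 (iDox-shGOT1). The 4 groups, of 3 libraries each, were untreated Pa-Tu-8902, dox-treated Pa-Tu-8902, untreated MIA PaCa-2 and dox-treated MIA PaCa-2. The labels give day 5 for the dox-treated libraries and no day for the untreated ones. The sample labels give the dox dose as 1 µM/mL, a unit that mixes an amount with a concentration. All groups carried the hairpin and no library with a non-targeting hairpin was analysed here, so dox itself and the loss of GOT1 cannot be told apart, and which hairpin was used is not given in the sources used here. The question asked was whether the mRNAs of the charging enzymes changed with GOT1 knockdown, and whether the cytosolic and mitochondrial sets changed alike.

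Most synthetases recognise a single amino acid and the transfer RNAs that decode it, while EPRS serves both glutamate and proline. Protein synthesis stalls at codons whose transfer RNA is not charged. Most cells make separate enzymes for the cytosol and for the mitochondrial matrix from separate nuclear genes, while KARS and GARS each encode both forms. Uncharged transfer RNA activates the kinase GCN2, which favours translation of the transcription factor ATF4, and ATF4 is known to induce many cytosolic synthetase genes together with amino acid transporters and biosynthetic enzymes such as ASNS, asparagine synthetase. Many of the cytosolic enzymes are held in a multisynthetase complex with scaffold proteins, and the rest are free or in small assemblies. GOT1 is the cytosolic aspartate transaminase, which converts aspartate and 2-oxoglutarate to oxaloacetate and glutamate.

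GOT1 was at 118 to 135 normalized CPM (a gene's count scaled by a library size that was adjusted by TMM over all 12 libraries) in untreated Pa-Tu-8902 and at 4.37 to 5.67 with dox. In MIA PaCa-2 the GOT1 level was 67.1 to 75.8 normalized CPM untreated and 2.24 to 3.08 with dox. Libraries held 26226537 to 43406137 counts, and members had between 142 and 24740 counts in a library. All 5 epithelial markers were higher in untreated Pa-Tu-8902 than in untreated MIA PaCa-2, with EPCAM and CDH1 at 543 to 698 and 60.0 to 139 TPM in Pa-Tu-8902 and at 0 to 0.36 TPM in MIA PaCa-2, where the keratins KRT8, KRT18 and KRT19 were still between 128 and 1667 TPM. Of 3 mesenchymal markers VIM (2.54 to 10.5 TPM in Pa-Tu-8902, 3531 to 4218 TPM in MIA PaCa-2) and ZEB1 were lower in untreated Pa-Tu-8902, and CDH2, at 1.16 TPM or less in every library, was higher. Count columns named for Pa-Tu-8902 in a supplementary table of the study match the counts deposited under MIA PaCa-2 titles, and the line names used here are those of the deposited titles. The summed TPM of 7 markers of other cell types was 3.5 to 7.16 in untreated and 17.6 to 21.6 in dox-treated Pa-Tu-8902, nearly all of it COL1A1, and at most 0.55 in MIA PaCa-2, and the leukocyte marker PTPRC did not exceed 0.14 TPM in any library. The part of COL1A1-expressing cells in the results was not tested. Untreated MIA PaCa-2 replicate 2 stood apart, its counts differing from those of the other untreated libraries by a chi-square over degrees of freedom of 25.5 and 27.3, with at most 20.6 for any other pair within a group. Nothing in the labels says that replicates were separate cultures, so p-values measure the spread between these libraries, which may be technical.

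A sequence known from amino acid response genes was searched for in the promoters. The window from 250 bases before to 50 bases after the RefSeq start site (GRCh38.p14) was listed for 16 cytosolic and 14 mitochondrial members, some with 2 windows, and searched on both strands for TGATGNAA, the core of the C/EBP-ATF response element through which ATF4 acts with its partners. It was present in at least 1 window of 7 of the 16 cytosolic members (43.8%) and of 1 of the 14 mitochondrial members (7.14%), and of 4.46% of all 27305 genes in the table. In 6 of the 7 cytosolic members, all but GARS, the match was TGATGCAA or its reverse complement, which 1.08% of all genes have in a window. A match describes the letters in the window and not a bound site. The windows of DARS, LARS, VARS, YARS, AARS2 and VARS2 were not in the table. The matches are shown because the cytosolic genes that carry them hold most of the cytosolic falls in Pa-Tu-8902, and the window of ASNS is shown for comparison. The windows of XPOT and EEF1E1, pathway genes described below that fell in Pa-Tu-8902 more than any member, were searched too and held no match. Each line gives 30 bases on the strand of the gene, 5′ to 3′, with the match in capitals.
AARS, chr16:70289675-70289704, minus strand: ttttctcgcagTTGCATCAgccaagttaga
CARS, chr11:3057407-3057436, minus strand: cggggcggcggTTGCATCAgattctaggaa
GARS, chr7:30594834-30594863, plus strand: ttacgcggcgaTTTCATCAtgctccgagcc
IARS, chr9:92293692-92293721, minus strand: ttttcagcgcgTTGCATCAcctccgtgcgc
MARS, chr12:57488053-57488082, plus strand: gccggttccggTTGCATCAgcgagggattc
NARS, chr18:57621804-57621833, minus strand: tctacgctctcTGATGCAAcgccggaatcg
TARS, chr5:33440956-33440985, plus strand: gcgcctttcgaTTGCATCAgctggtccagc
YARS2, chr12:32756076-32756105, minus strand: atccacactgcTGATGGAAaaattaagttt
ASNS, chr7:97872458-97872487, minus strand: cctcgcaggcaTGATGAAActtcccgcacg
The match began 33 bases or fewer from the start site in CARS (-2), GARS (-33), IARS (-13), MARS (-4), NARS (15) and TARS (3), and 187 bases before it in AARS. In the mitochondrial YARS2 it lay 197 bases before the start site.

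In untreated cells, the cytosolic enzymes were more abundant than the mitochondrial ones in both lines. The median cytosolic level was 123 TPM in Pa-Tu-8902 and 136 TPM in MIA PaCa-2, against mitochondrial medians of 20.3 and 20.6 TPM. TARS, the cytosolic threonyl enzyme, led in Pa-Tu-8902 at 413 ± 6.18 TPM (SD, n = 3), followed by KARS (lysyl) at 274 ± 3.05 and GARS (glycyl) at 241 ± 2.06 TPM, and these 3 levels did not overlap. WARS, the cytosolic tryptophanyl enzyme and a known interferon-induced gene, led in MIA PaCa-2 at 624 ± 119 TPM, followed by GARS at 238 ± 34.6 and KARS at 183 ± 14.5 TPM. CARS, the cysteinyl enzyme, was the lowest cytosolic member in both lines, at 51.4 ± 1.99 and 39.5 ± 8.79 TPM. Among the mitochondrial enzymes YARS2 (tyrosyl) led in Pa-Tu-8902 at 97.0 ± 3.73 TPM and IARS2 (isoleucyl) in MIA PaCa-2 at 164 ± 11.8 TPM, and PARS2 (prolyl) was lowest in both, at 3.32 ± 0.173 and 5.51 ± 0.603 TPM. Over the 13 amino acids with 1 gene of each kind among the members, the cytosolic level was a median of 3.99 times the mitochondrial one in Pa-Tu-8902 (range 0.945 to 26.3) and 4.58 times in MIA PaCa-2 (range 0.744 to 102). CARS and CARS2 had near-equal TPM in both lines.

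The lines differed most in WARS, which was at 82.2, 87.8 and 87.2 TPM in the untreated Pa-Tu-8902 libraries and at 673, 488 and 711 TPM in the untreated MIA PaCa-2 libraries. The WARS levels of the lines were far apart in every library, and the log2 difference, Pa-Tu-8902 minus MIA PaCa-2, was -2.98 ± 0.07 (SE, edgeR quasi-likelihood test, adjusted p = 7.0e-17). With both thresholds, an adjusted p (Benjamini-Hochberg) under 0.01 and at least a 1.5-fold difference, 13 of 36 members differed between the untreated lines, where 57.5% of 16544 genes tested did. With the adjusted p alone, the counts were 23 members and 73.7% of genes. Higher in Pa-Tu-8902 were NARS2 (log2 difference 1.47), TARS (1.44), SARS2 (1.37), FARSA (1.02), YARS2 (0.90) and IARS (0.63). Lower in Pa-Tu-8902 were WARS, TARS2 (-1.36), FARS2 (-1.24), VARS2 (-1.09), IARS2 (-1.0), AARS (-0.79) and PARS2 (-0.75). The cytosolic and mitochondrial threonyl enzymes thus differed between the lines in opposite directions. GARS, at -0.07 ± 0.06, did not pass the test.

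**Figure D1:**
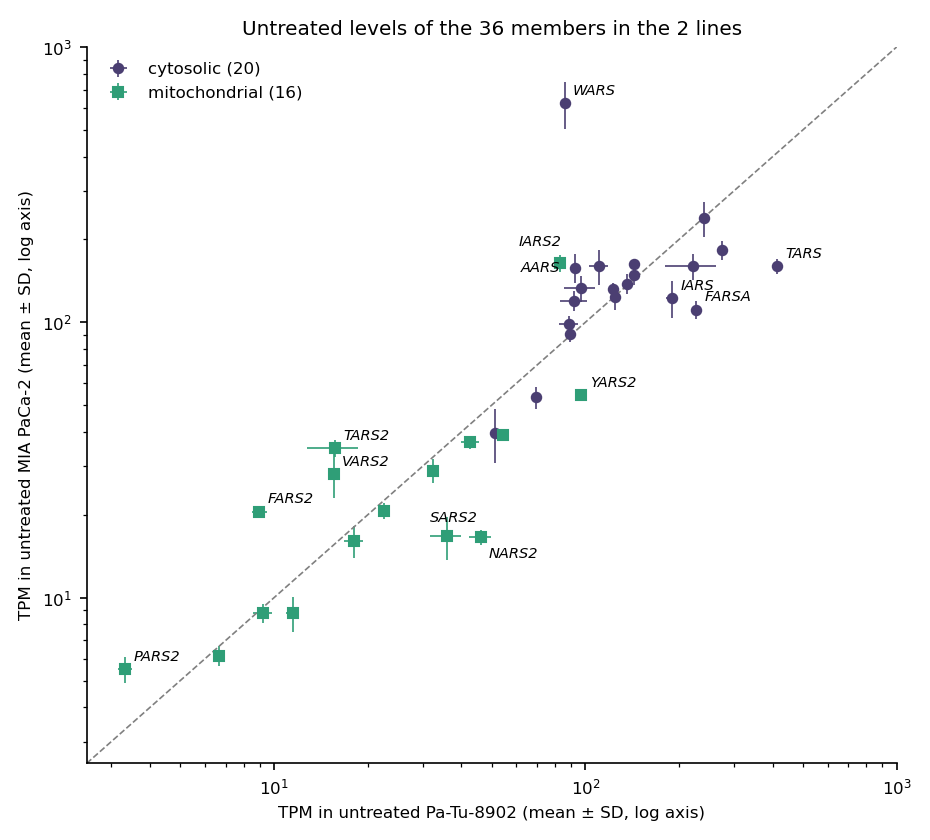
Level of each of the 36 members in untreated Pa-Tu-8902 (x axis, TPM, log scale) and untreated MIA PaCa-2 (y axis, TPM, log scale), as the mean and SD of 3 libraries, with the 13 members past both thresholds named and equality dashed. Most members lie near the dashed line, and WARS lies far above it, at 85.7 against 624 TPM.

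In Pa-Tu-8902, dox treatment went with lower mRNA of many synthetases, mostly by less than 1.5-fold. Of the 20 cytosolic members 17 had a negative log2 fold change, and of the 16 mitochondrial members 12 did, where 49.8% of all genes tested did. With the adjusted p below 0.01 alone, 13 of 36 members fell and 1 rose, where 38.1% of 14949 genes tested passed in either direction and 19.1% fell. With the fold limit added, VARS was the one member called, where 16.3% of all genes were called and 7.12% were called lower, so the share of members past both thresholds was below that of all genes. The median log2 fold change was -0.14 for the cytosolic and -0.18 for the mitochondrial members, beside 0.00 for all genes.

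VARS, which charges valine transfer RNA, was at 193, 201 and 213 normalized CPM in the untreated Pa-Tu-8902 libraries and at 118, 133 and 129 with dox. The dox values all lay below the untreated ones. Its log2 fold change was -0.68 ± 0.06 (SE; edgeR adjusted p = 4.2e-06), a 1.60-fold fall. VARS lies at chr6:31777518-31795752 on the minus strand (GRCh38), and its promoter window was not in the table.

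IARS, the isoleucyl enzyme of the multisynthetase complex, was at 611, 619 and 626 normalized CPM untreated and 424, 431 and 434 with dox. The groups were far apart, and the log2 fold change of -0.52 ± 0.04 (edgeR adjusted p = 4.1e-06) stayed inside the fold limit. MARS, the methionyl enzyme, was at 247 to 262 normalized CPM untreated and 178 to 192 with dox (log2 fold change -0.47 ± 0.05). TARS, the most abundant member of the line, was at 590, 601 and 651 normalized CPM untreated and 436, 454 and 456 with dox (-0.45 ± 0.05). GARS was at 342, 351 and 377 normalized CPM untreated and 252, 275 and 265 with dox (-0.43 ± 0.05). None of these genes overlapped between the groups, and all carry the response-element core shown above. How often the groups overlap over all genes was not counted, so a lack of overlap here and below is a description only. CARS (-0.36) and RARS, the arginyl enzyme (-0.19), completed the 7 cytosolic falls, and RARS lost its call without any 1 library (adjusted p of up to 0.034).

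LARS, the leucyl enzyme and a described leucine sensor, was the one member that rose in Pa-Tu-8902. It was at 247, 247 and 246 normalized CPM untreated and 307, 306 and 304 with dox, a log2 fold change of 0.31 ± 0.04 (edgeR adjusted p = 1.3e-04). The LARS libraries of each group lay within a few units of each other and the groups did not overlap. Other cytosolic members had values close to 0, among them AARS (alanyl) at 0.08, DARS (aspartyl) at 0.02 and WARS at -0.05. WARS was at 87.2, 86.0 and 97.0 normalized CPM untreated and 82.0, 91.9 and 87.3 with dox, so its groups overlapped, and the 95% interval of its log2 fold change was -0.16 to 0.07.

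The 6 mitochondrial falls in Pa-Tu-8902 were YARS2, VARS2, TARS2, CARS2, IARS2 and NARS2, and 0 of 16 rose by the adjusted p in edgeR or DESeq2 (2 at an unadjusted edgeR p under 0.05). YARS2, which charges mitochondrial tyrosine transfer RNA, was at 126, 121 and 143 normalized CPM untreated and at 84.1, 93.5 and 93.4 with dox (log2 fold change -0.52 ± 0.07, edgeR adjusted p = 9.7e-05). YARS2 was the largest mitochondrial change in this line, and its window was the one mitochondrial window with the response-element core. VARS2 (valyl) had a log2 fold change of -0.39 ± 0.07, TARS2 (threonyl) of -0.39 ± 0.09, CARS2 (cysteinyl) of -0.37 ± 0.05, IARS2 of -0.29 ± 0.05 and NARS2 (asparaginyl) of -0.26 ± 0.06. For 4 amino acids, cysteine, isoleucine, threonine and valine, the cytosolic and the mitochondrial gene both fell. With RSEM's effective lengths as offsets, MARS also passed the fold limit at -0.59, and VARS2, NARS2 and TARS2 lost their calls, TARS2 at -0.22 with an edgeR adjusted p of 0.30. TARS2 also lost its call without untreated replicate 3, dox replicate 1 or dox replicate 3, and NARS2 without untreated replicate 1 or 3 or dox replicate 1 or 3, and in TPM the TARS2 groups overlapped.

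**Figure D2:**
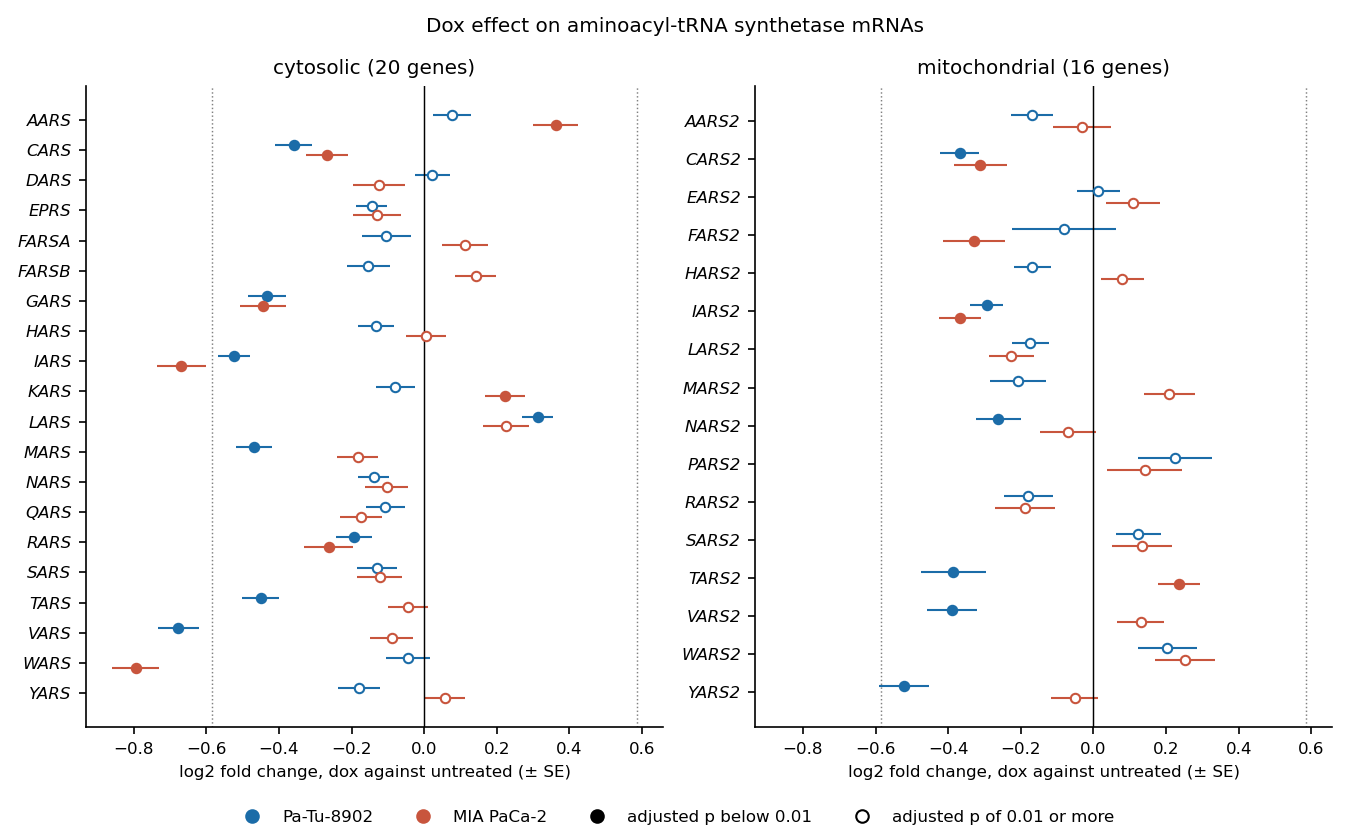
Log2 fold change with dox (x axis, ± SE, edgeR) of the 20 cytosolic and 16 mitochondrial members in Pa-Tu-8902 (blue) and MIA PaCa-2 (red), filled where the adjusted p was below 0.01, with dotted lines at 1.5-fold. VARS in Pa-Tu-8902 (-0.68), and IARS (-0.67) and WARS (-0.79) in MIA PaCa-2, lie beyond the dotted lines, and TARS2 is filled on opposite sides of 0 in the lines.

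In MIA PaCa-2, 11 of 36 members passed the adjusted p alone, beside 27.2% of all genes. In Pa-Tu-8902 it was 14 of 36 members, beside 38.1% of all genes. The median of the cytosolic set was negative, and that of the mitochondrial set lay near the median of all genes. IARS and WARS were the 2 members called lower with both thresholds, where 12% of 14589 genes tested were called and 7.64% were called lower. With the adjusted p alone, 8 members fell (CARS, GARS, IARS, RARS, WARS, CARS2, FARS2 and IARS2) and 3 rose (AARS, KARS and TARS2), where 27.2% of all genes passed and 14.7% fell. The median log2 fold change was -0.11 for the cytosolic and 0.02 for the mitochondrial members, beside -0.01 for all genes. Negative values numbered 13 of 20 and 8 of 16, beside 50.9% of all genes.

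WARS was at 743, 660 and 732 normalized CPM in the untreated MIA PaCa-2 libraries and at 412, 414 and 402 with dox. Each dox library was below each untreated library by a wide gap, and the log2 fold change was -0.79 ± 0.06 (edgeR adjusted p = 3.6e-06), a 1.73-fold fall. With dox, WARS in MIA PaCa-2 still lay above every Pa-Tu-8902 library. IARS was at 426, 368 and 409 normalized CPM untreated and at 252, 255 and 248 with dox (log2 fold change -0.67 ± 0.07, adjusted p = 1.7e-05). The lowest untreated IARS value was that of replicate 2, the library that stands apart, and without it the IARS change was -0.73 and the WARS change -0.85.

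GARS fell in MIA PaCa-2 as well, from 398, 349 and 375 normalized CPM to 271, 280 and 272 (log2 fold change -0.44 ± 0.06, edgeR adjusted p = 2.5e-04). IARS2 was at 438, 439 and 408 normalized CPM untreated and at 330, 329 and 335 with dox (-0.37 ± 0.06). FARS2, the mitochondrial phenylalanyl enzyme, had a log2 fold change of -0.33 ± 0.09, CARS2 of -0.31 ± 0.07, CARS of -0.27 ± 0.06 and RARS of -0.26 ± 0.07. For cysteine and isoleucine, both the cytosolic and the mitochondrial gene fell in both lines.

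AARS rose in MIA PaCa-2 from 379, 359 and 387 normalized CPM to 492, 491 and 460 (log2 fold change 0.36 ± 0.06, edgeR adjusted p = 7.3e-04), and its window holds the same TTGCATCA as those of CARS, IARS, MARS and TARS. KARS rose from 259, 261 and 255 normalized CPM to 305, 302 and 296 (0.22 ± 0.05, adjusted p = 0.0071), and TARS2 from 59.6, 61.7 and 57.4 to 70.4, 69.4 and 70.0 (0.24 ± 0.06, adjusted p = 0.0078). None of these genes overlapped between its groups. LARS had a log2 fold change of 0.22 ± 0.06 in MIA PaCa-2 (adjusted p = 0.014), in the direction of its rise in Pa-Tu-8902 but short of the threshold. Without untreated replicate 2, 11 rather than 7 cytosolic members passed the adjusted p, and without any 1 of the dox libraries 4 did. Of the mitochondrial members, 2 rather than 4 passed without untreated replicate 1 and 1 without any 1 of the dox libraries. The rises of KARS and TARS2 lost their calls without untreated replicate 1 or 3 or any 1 of the dox libraries, with adjusted p of up to 0.055 and 0.047, and CARS, RARS, CARS2 and FARS2 lost theirs without any 1 of the dox libraries (RARS and FARS2 also without untreated replicate 1).

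**Figure D3:**
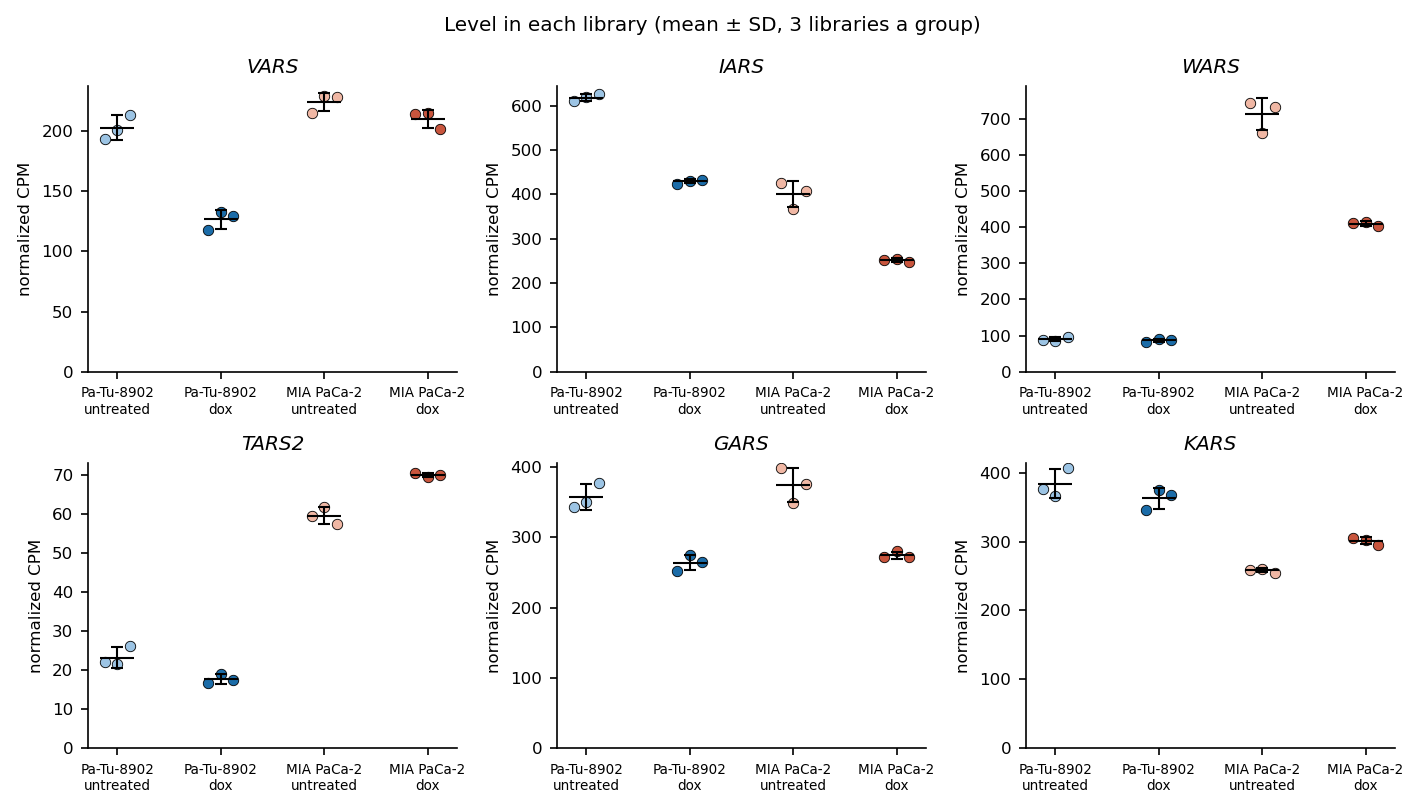
Normalized CPM (y axis, from 0) of VARS, IARS, WARS, TARS2, GARS and KARS in each library of the 4 groups, with the mean and SD of 3 libraries. VARS is lower with dox in Pa-Tu-8902, WARS in MIA PaCa-2, IARS and GARS in both, and TARS2 is lower with dox in Pa-Tu-8902 and higher in MIA PaCa-2.

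The difference between the dox effects of the lines was tested directly in a fit of all 12 libraries. The difference passed both thresholds for 3 of 36 members, where 10.4% of 16544 genes tested did, and the adjusted p alone for 8, where 16.9% of genes did. WARS fell more in MIA PaCa-2, by a difference of 0.75 ± 0.09 on the log2 scale, Pa-Tu-8902 minus MIA PaCa-2 (edgeR adjusted p = 1.3e-05). TARS2 differed by -0.62 ± 0.11 (adjusted p = 3.1e-04), having been at 22.0, 21.5 and 26.3 normalized CPM untreated and at 16.6, 19.0 and 17.6 with dox in Pa-Tu-8902, and having risen in MIA PaCa-2. VARS differed by -0.59 ± 0.09 (adjusted p = 7.3e-05), since in MIA PaCa-2 it was at 215, 228 and 228 normalized CPM untreated and at 214, 214 and 201 with dox, a log2 fold change of -0.09 ± 0.06. The VARS difference lay just beyond the fold limit and fell inside it under 12 of 18 alternatives, between -0.58 and -0.52, with every adjusted p still below 0.01.

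The other 5 members past the adjusted p were VARS2 (difference -0.52), YARS2 (-0.47), MARS2, the mitochondrial methionyl enzyme (-0.41), TARS (-0.40) and KARS (-0.30). All 5 had the more negative log2 fold change in Pa-Tu-8902, and 4 of the mitochondrial members, TARS2, VARS2, YARS2 and MARS2, were among the 8. IARS (0.15) and GARS (0.01) did not pass. With effective lengths as offsets the TARS2 difference was lost (-0.43, edgeR adjusted p = 0.13), as were those of VARS2, YARS2, MARS2 and KARS, the KARS difference was lost without any 1 library and the MARS2 difference without any 1 of 9 libraries, and without Pa-Tu-8902 untreated replicate 3 or dox replicate 1 WARS alone passed both thresholds.

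Side by side over the 36 members, the log2 fold changes of the lines had Spearman's rho of 0.40 and Pearson's r of 0.40, as a description over genes that share the same libraries. The rho was 0.44 over the 20 cytosolic and 0.28 over the 16 mitochondrial members. The sign was the same in both lines for 26 of 36 members, and negative in both for 20. Neither the correlations nor these sign counts were computed over all genes, so they describe the members alone. Of the 18 members past the adjusted p in either line, 7 were past it in both, where 2056 of 6639 genes (31%) were, over 13109 genes tested in both lines. The 7 were CARS, GARS, IARS, RARS, CARS2 and IARS2, lower in both, and TARS2, lower in Pa-Tu-8902 and higher in MIA PaCa-2. The calls of TARS2 and RARS in each line, and those of CARS and CARS2 in MIA PaCa-2, were lost under the alternatives given above.

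The summed level of each class carried the same pattern for Pa-Tu-8902. The 20 cytosolic members summed to 3071, 3036 and 2929 TPM in untreated Pa-Tu-8902 and to 2668, 2741 and 2716 TPM with dox, and the groups did not overlap. The 16 mitochondrial members summed to 507, 501 and 501 TPM untreated and to 455, 444 and 460 TPM with dox, also without overlap. The cytosolic sum was 5.84 to 6.06 times the mitochondrial one untreated and 5.86 to 6.17 times with dox, so both classes fell by a like share. In MIA PaCa-2, the cytosolic sum was 3352, 2782 and 3339 TPM untreated and 2948, 2929 and 2795 TPM with dox, and untreated replicate 2 fell below all dox libraries. The mitochondrial sum was 531, 471 and 517 TPM untreated and 484, 484 and 470 TPM with dox, again with replicate 2 among the dox values. On normalized CPM the sums did not overlap in this line, with cytosolic sums of 5032 to 5308 untreated and 4621 to 4731 with dox and mitochondrial sums of 948 to 990 and 874 to 880. WARS alone made up 19.6% ± 1.91 of the cytosolic TPM in untreated MIA PaCa-2 and 13.0% ± 0.533 with dox, against 2.85% ± 0.155 and 3.06% ± 0.0678 in Pa-Tu-8902. Without WARS, the cytosolic sum in MIA PaCa-2 was 2534 ± 209 TPM untreated and 2516 ± 57.5 TPM with dox, and 4371 to 4565 normalized CPM untreated and 4219 to 4317 with dox. IARS2 made up 32.5% of the mean mitochondrial TPM in untreated MIA PaCa-2 and 27.6% with dox. The mean of IARS2 went from 428 to 331 normalized CPM, and that of the mitochondrial sum from 973 to 877. The fall of IARS2 was thus about as large as that of the whole mitochondrial sum. In bulk RNA, less mRNA per cell and fewer cells with the mRNA cannot be told apart.

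**Figure D4:**
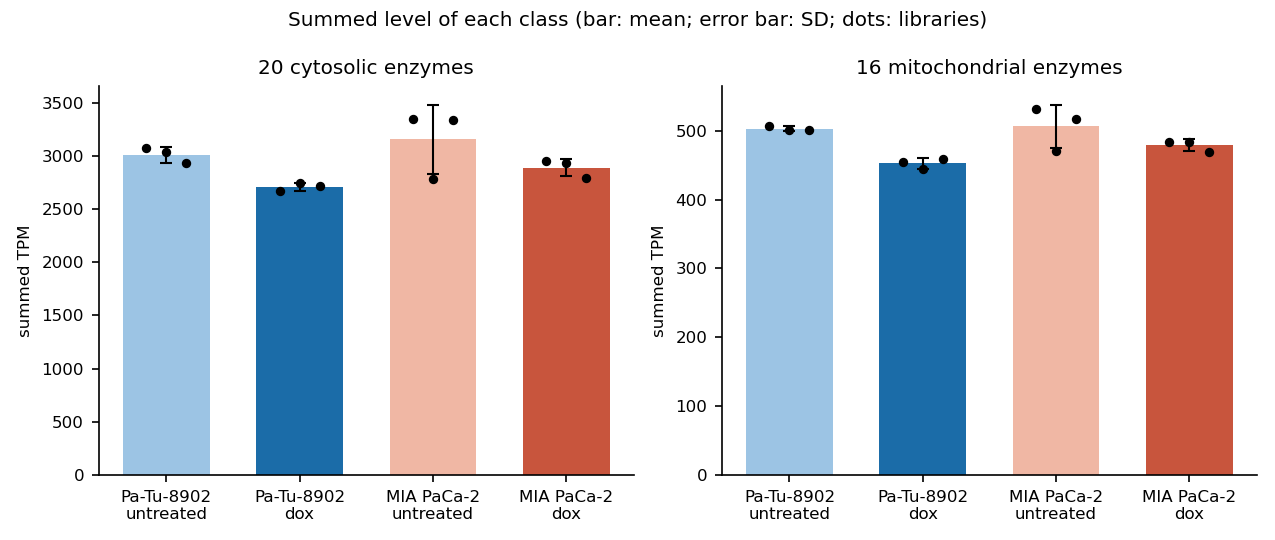
Summed TPM (y axis, from 0) of the 20 cytosolic and the 16 mitochondrial members in the 4 groups, with bars for the mean of 3 libraries, error bars for the SD and dots for libraries. Both sums are lower in all dox libraries of Pa-Tu-8902. The untreated replicate 2 of MIA PaCa-2 (2782 and 471 TPM) lies among or below the dox libraries in TPM.

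The cytosolic members were also grouped by known properties, and their falls by the adjusted p are to be read beside the 19.1% of all genes that fell in Pa-Tu-8902 and the 14.7% that fell in MIA PaCa-2. Of the 8 members of the multisynthetase complex, 3 fell and 1 rose by the adjusted p in Pa-Tu-8902 (median -0.13), and of the 12 other cytosolic members 4 fell (median -0.15). In MIA PaCa-2 the complex had 2 falls and 1 rise (median -0.15) and the other cytosolic members 3 falls and 1 rise (median -0.07). Class I and class II enzymes bind ATP with unrelated folds. In Pa-Tu-8902 5 of 10 class I members fell and 1 rose, and 2 of 10 class II members fell. In MIA PaCa-2 4 of 10 class I members fell, and of class II 1 fell and 2 rose. Of 12 cytosolic members generally described as ATF4-induced, 5 fell and 1 rose in Pa-Tu-8902 (median -0.16), with 2 of 8 falling among the other cytosolic members (median -0.12). In MIA PaCa-2, 4 of the 12 fell and 1 rose (median -0.13), and of the 8 others 1 fell and 1 rose (median -0.04).

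In Pa-Tu-8902, the medians of members with and without the sequence match were further apart than those of these groups. The split by match was shown with the falls already known and was not tested. Its falls are to be read beside the 19.1% of all genes that fell, and the share among all genes with a match was not computed. The 7 members with a match had a median log2 fold change of -0.43 and 5 falls (CARS, GARS, IARS, MARS and TARS), and the exceptions were NARS (-0.14) and AARS (0.08). The 9 with a window and no match had a median of -0.13, between -0.19 and -0.05, with 1 fall, RARS. The 4 without a window had a median of -0.08 and held both the largest fall, VARS, and the one rise, LARS. In MIA PaCa-2, the 7 members with a match ranged from -0.67 (IARS) to 0.36 (AARS) with a median of -0.18, and the 9 without one from -0.79 (WARS) to 0.22 (KARS) with a median of -0.12, so the groups overlapped over most of their range.

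**Figure D5:**
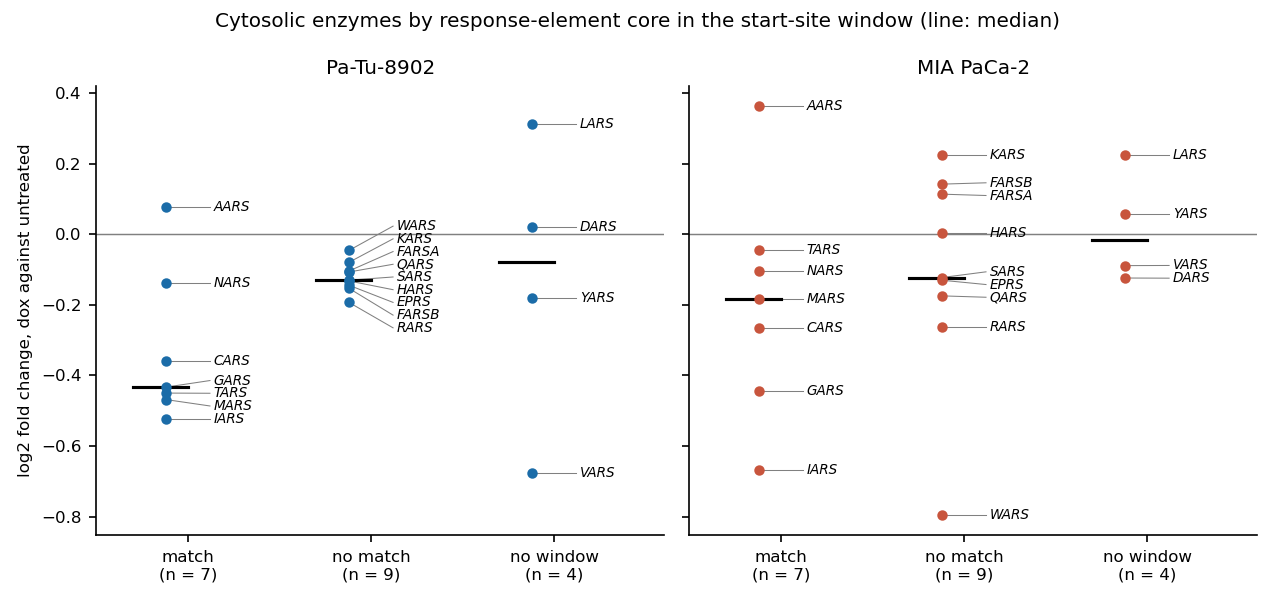
Log2 fold change with dox (y axis) of the cytosolic members in Pa-Tu-8902 (left) and MIA PaCa-2 (right), by whether TGATGNAA was found in the start-site window, not found, or the window was not in the table, with the median as a line. In Pa-Tu-8902, 5 of 7 genes with a match lie below all 9 without one, and in MIA PaCa-2 the groups overlap.

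KARS and GARS each supply both compartments. In Pa-Tu-8902 KARS was at 377, 367 and 407 normalized CPM untreated and 345, 375 and 368 with dox, with overlapping groups and a log2 fold change of -0.08 ± 0.05. The transcript that encodes the mitochondrial lysyl enzyme (KARS-202, 625 codons) made up 16.3% ± 0.607 of KARS TPM in untreated Pa-Tu-8902 and 16.6% ± 1.90 with dox, and 12.9% ± 0.767 and 15.5% ± 1.35 in MIA PaCa-2. The cytosolic transcript (KARS-201, 597 codons) made up 79.9%, 79.5%, 83.7% and 80.9% in the same order. In MIA PaCa-2, where KARS rose, KARS-202 went from 22.9 to 24.5 TPM untreated to 29.8 to 37.5 TPM with dox, without overlap. GARS had 1 protein-coding transcript of note (GARS-201, 739 codons), at 77.3% to 81.6% of GARS TPM in the 4 groups, so the tables do not separate its cytosolic and mitochondrial products.

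WARS was spread over many transcripts, and protein-coding ones made up 71.1% ± 3.1 of WARS TPM in untreated and 81.3% ± 2.6 in dox-treated Pa-Tu-8902, and 58.0% ± 4.2 and 58.8% ± 2.5 in MIA PaCa-2. The summed protein-coding WARS TPM of MIA PaCa-2 was 304 to 389 untreated and 213 to 224 with dox, so the fall was also present in coding transcripts. A retained-intron transcript (WARS-237) was at 24.4% ± 3.61 of WARS TPM in untreated and 16.4% ± 1.23 in dox-treated MIA PaCa-2, and at a mean of 1.09% in untreated Pa-Tu-8902 and 0% with dox. Transcript shares are RSEM estimates from shared reads and were not tested.

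HARS and HARS2, the cytosolic and mitochondrial histidyl enzymes, lie head to head on chromosome 5. Between their RefSeq start sites lie the 84 bases of chr5:140691371-140691454 (GRCh38), 59.5% G or C, given here on the plus strand, the strand of HARS2, because one stretch serves both genes.
HARS to HARS2: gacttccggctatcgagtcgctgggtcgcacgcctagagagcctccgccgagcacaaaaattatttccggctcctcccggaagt
HARS was at 182, 180 and 189 normalized CPM untreated and 159, 177 and 167 with dox in Pa-Tu-8902, with a log2 fold change of -0.13 ± 0.05 (edgeR adjusted p = 0.049). HARS2 was at 65.4, 69.6 and 67.3 normalized CPM untreated and 60.4, 61.9 and 57.5 with dox (-0.17 ± 0.05, adjusted p = 0.019). Neither gene passed the threshold, and the lack of overlap between the groups of each is a description only. In MIA PaCa-2, HARS had a log2 fold change of 0.00 ± 0.06 (95% interval -0.10 to 0.11) and HARS2 of 0.08 ± 0.06 (-0.04 to 0.20). The annotated gene bodies overlap near the start sites, where position alone does not separate their reads. The submitters describe the libraries as strand-specific and report default settings for RSEM and STAR. Whether the strand was used in counting is not given in the sources used here.

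Among the other genes of the charging pathway, the export receptor, the formylating enzyme and the scaffold gene EEF1E1 had lower log2 fold changes than any of the 36 members in Pa-Tu-8902. XPOT, exportin-t, which carries transfer RNA out of the nucleus, was at 243, 241 and 250 normalized CPM in untreated Pa-Tu-8902 and at 113, 109 and 113 with dox (log2 fold change -1.13 ± 0.04, edgeR adjusted p = 2.6e-08). In MIA PaCa-2, XPOT was at 285, 247 and 261 normalized CPM untreated and at 131, 130 and 132 with dox (-1.01 ± 0.07, adjusted p = 7.6e-07). XPOT was therefore below the untreated level in every dox library of both lines. MTFMT, which formylates mitochondrial initiator methionyl-tRNA after MARS2 has charged it, was at 17.8, 20.1 and 20.5 normalized CPM untreated and 10.3, 12.7 and 11.1 with dox in Pa-Tu-8902 (-0.77 ± 0.09) and at 21.3, 24.2 and 20.4 and 13.9, 13.2 and 13.3 in MIA PaCa-2 (-0.70 ± 0.09). The other mitochondrial cofactors, QRSL1, GATB and GATC, which convert glutamyl- to glutaminyl-tRNA, did not pass the threshold in either line.

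Of the 3 scaffold genes of the multisynthetase complex, EEF1E1 fell in Pa-Tu-8902 from 58.6, 57.3 and 60.7 normalized CPM to 31.4, 30.5 and 32.4 (log2 fold change -0.90 ± 0.05, edgeR adjusted p = 2.6e-07), whereas AIMP1 was at -0.15 and AIMP2 at 0.13 without passing. In MIA PaCa-2 EEF1E1 was at -0.52 ± 0.09 and passed the adjusted p alone, and AIMP2 rose by 0.33. Of 7 elongation factors that take charged transfer RNA to the ribosome or recharge those factors, 3 fell in Pa-Tu-8902 by the adjusted p, where 19.1% of all genes fell. They were EEF1B2 (-0.54), EEF1D (-0.29) and EEF1A1 (-0.29). In MIA PaCa-2, 0 of 7 passed by edgeR or DESeq2, where 27.2% of all genes passed by edgeR. There, 0 of 7 also passed at an unadjusted edgeR p under 0.05, with 6 of 7 values negative and a median of -0.07. The scaffold genes and the mitochondrial cofactors are to be read beside the same shares. Of the remaining genes in the list of 4 editing and export factors, AARSD1, an alanyl editing protein, fell in Pa-Tu-8902 (-0.35) and DTD2, a D-aminoacyl-tRNA deacylase, rose in MIA PaCa-2 (0.39).

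Genes of the amino acid response had lower medians than the synthetases in both lines. Of 22 listed genes 19 were tested in Pa-Tu-8902, of which 11 fell and 1 rose by the adjusted p and 6 were called lower with both thresholds (all genes: 19.1% and 7.12% lower), with a median log2 fold change of -0.32. In MIA PaCa-2 21 were tested, of which 8 fell and 3 rose, with 4 called lower and 1 higher (all genes: 14.7% and 7.64% lower) and a median of -0.35. ASNS was at 78.6, 81.2 and 88.2 normalized CPM in untreated Pa-Tu-8902 and 37.4, 38.8 and 38.2 with dox (-1.11 ± 0.05), and its change in MIA PaCa-2 was -0.49 ± 0.06. SLC7A11, the cystine transporter subunit, was at -0.73 and -1.45 in Pa-Tu-8902 and MIA PaCa-2, DDIT3, a stress transcription factor, at -0.79 and -0.61, and SHMT2, a mitochondrial one-carbon enzyme, at -0.70 and 0.18, the last without passing in MIA PaCa-2. Not all listed genes were lower. Values were negative for 14 of 19 and positive for 5 in Pa-Tu-8902, and negative for 13 of 21 and positive for 8 in MIA PaCa-2. SLC7A5, SLC3A2 and SESN2 had higher mean TPM with dox in both lines. SLC7A5 went from 1091 to 1346 TPM in Pa-Tu-8902 and from 101 to 140 TPM in MIA PaCa-2, and SLC3A2 from 872 to 1106 and from 125 to 156 TPM. ATF4 mRNA itself had a log2 fold change of -0.41 ± 0.06 in Pa-Tu-8902, which passed the adjusted p, and of -0.04 ± 0.07 in MIA PaCa-2.

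Interferon response genes are given beside WARS because interferon is known to induce it. In Pa-Tu-8902 8 of 12 tested rose and 1 fell by the adjusted p, 6 of them called higher with both thresholds (of all genes, 38.1% and 16.3% passed in either direction), among them OAS1 (log2 fold change 3.18), MX1 (1.46), PSMB9 (1.09) and IRF1 (0.66). WARS in the same libraries was at -0.05. In MIA PaCa-2, 3 of 10 tested fell and 0 rose by edgeR or DESeq2 (1 was higher at an unadjusted edgeR p under 0.05), where 14.7% of all genes fell. Those called lower with both thresholds were IFIT2 (-0.86) and IFIT1 (-0.73). In this line MX1 was at -0.38, PSMB9 at -0.21 and IRF1 at 0.24 without passing, and OAS1 was not tested because its counts were too low. Between the untreated lines, 10 of 12 interferon genes tested were called higher in Pa-Tu-8902 with both thresholds and 1 lower, with a median log2 difference of 2.29. Of all genes, 57.5% were called in either direction, and WARS was lower in Pa-Tu-8902. The part of interferon signalling in the WARS change with dox, or in the WARS difference between the untreated lines, was not tested.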

How the data were processed

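RNA-seq was performed on 12 libraries, 3 in each of 4 groups, and the grouping rests on the sample titles, with which a supplementary table of the study disagrees on the name of the line. The authors trimmed reads of strand-specific poly(A) libraries with Trimmomatic 0.39, aligned and quantified them with RSEM 1.3.1 and STAR 2.5.2a on GRCh38 with GENCODE 29, and deposited expected counts and TPM of genes and transcripts, unfiltered and with replicates separate; 5.34% of the expected counts are not whole. After rounding, TMM-normalized counts of genes that reached 10 counts in 3 or more libraries entered the quasi-likelihood test of edgeR 4.0.16 (glmQLFit, glmQLFTest; R 4.3.3), per line, and over all 12 libraries for the difference between lines and for the untreated lines. P-values were adjusted by Benjamini-Hochberg over all genes tested. A gene was called when its adjusted p was under 0.01 and it changed by 1.5-fold or more, the thresholds of the study, and the adjusted p alone was the second rule. SE is the size of the log2 fold change over the root of F. TPM, scaled per transcript length, served to compare levels between genes, and normalized CPM to compare libraries. The scripts were tested on simulated counts.

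The members and gene lists were chosen with earlier results of these data known, and no test was run over a list. Full statistics are given for members past both thresholds in a line or between the lines and for KARS, GARS, WARS, HARS and HARS2, and for other lists at most 4 genes, those with the smallest p in Pa-Tu-8902. The other members named with values, and ATF4, SLC7A5, SLC3A2, SESN2, IFIT1 and IFIT2, were chosen after their values were seen. Positions come from GENCODE 44 on GRCh38 and promoter windows from RefSeq. Protein sequences were not used here. The alternatives tried were other count filters, DESeq2 1.42.0, DESeq2 size factors with edgeR, effective lengths, 1 fit of all libraries, no fold limit, a replicate block and each library left out. Residuals of libraries with the same replicate number correlated between -0.11 and 0.15 over 12710 genes, so the numbers were not taken to pair libraries. A count of 0 allows up to 3 counts, for counting error only.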

Additional observations from a re-analysis of the deposited data

Results flagged for a closer look

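The dox effects of the lines differed past both thresholds, by the edgeR interaction test, for 3 members and for 5 of the other named genes that were tested in both lines. The differences in log2 fold change, Pa-Tu-8902 minus MIA PaCa-2, were -0.59 for VARS, 0.75 for WARS and -0.62 for TARS2. Among the other genes they were -0.62 for ASNS, -0.88 for SHMT2, 0.73 for SLC7A11, 1.85 for MX1 and 1.3 for PSMB9.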

How the results depend on the processing

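Of 676 values of single genes under the alternatives, 647 kept their direction and their side of the paired thresholds on adjusted p and fold, 16 lost such a call (the VARS and TARS2 differences between lines), 1 gained one and 12 changed sign. By the adjusted p alone, 91 of the 676 values, in 15 results, lost a call: TARS2, RARS, NARS2 and VARS2 in Pa-Tu-8902, KARS, TARS2, CARS, RARS, CARS2 and FARS2 in MIA PaCa-2, and the differences of TARS2, KARS, MARS2, VARS2 and YARS2. The sign changes were of values near 0, and their cause was not tested: WARS in Pa-Tu-8902 (0.0063 and 0.013 without untreated replicate 3 and dox replicate 1), HARS in MIA PaCa-2 (-0.0074 with no filter, -0.0029 with effective lengths, -0.018 to 0.0087 with a library left out) and the GARS difference between lines (-0.078 with effective lengths, -0.040 to 0.077 with a library left out).

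With no fold limit, by construction, the counts were 5692 genes and 8 cytosolic and 6 mitochondrial members in Pa-Tu-8902, 3973 genes and 7 and 4 members in MIA PaCa-2, 2799 genes and 8 members between the dox effects, and 23 members between the untreated lines. With effective lengths as offsets, 2 cytosolic members passed both thresholds and 3 mitochondrial ones the adjusted p in Pa-Tu-8902, 1 mitochondrial member the adjusted p in MIA PaCa-2, and 1 and 3 members both thresholds and the adjusted p in the difference between lines. With the replicate block, 4 cytosolic and 1 mitochondrial members passed the adjusted p in MIA PaCa-2, and the block changed no other count of members by over 1.5 times. Requiring 10 counts in every library left 6244 genes called between the untreated lines, since fewer genes were tested. The mitochondrial median in MIA PaCa-2 was 0.013 with no filter and 0.043 with effective lengths, the summed mitochondrial log2 ratio in Pa-Tu-8902 was -0.18 by share of counts against -0.15 by TPM (in MIA PaCa-2, -0.13 against -0.079), and by counts KARS-202 made up 19.7% and 20.02% of KARS in Pa-Tu-8902 and 15.7% and 18.7% in MIA PaCa-2. With a library left out, 4 to 11 cytosolic and 1 to 5 mitochondrial members passed the adjusted p in MIA PaCa-2, with medians of -0.14 to -0.086 and 0.0078 to 0.035, and 1 to 3 members passed both thresholds in the difference between lines.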
